A study of Sus scrofa with 12 samples.

Results

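Genes of insulin signalling and glucose transport were examined in loin muscle (longissimus dorsi, LD) of Iberian pigs that differ in intramuscular fat (IMF). The 10 genes were taken by name: the ligand IGF1, the receptors INSR and IGF1R, the adaptors IRS1 and IRS2, PIK3R1, AKT2, TBC1D4, the glucose transporter SLC2A4 and TRARG1. They are 10 of the 28207 genes annotated on chromosomes of Sscrofa11.1, and all 10 were among the 12403 genes that passed the filter on low values. The rule itself uses no measured value.

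The study sequenced 1 RNA library from each of 12 purebred Iberian castrated males, which were finished outdoors on acorns and grass and shared no parent. The H group holds the 6 pigs with high estimated breeding values (EBV) for IMF, from 2.78 to 3.48, and a labelled IMF of 10.62 to 13.8%. The L group holds the 6 pigs with low EBVs, from -1.46 to -1.31, and a labelled IMF of 1.7 to 2.28%. Pigs were chosen from the extremes of a population, so H and L are not an experimental treatment. More than 1 rearing and slaughter batch supplied them, and the sources used here do not tie a pig to its batch.

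Insulin and the insulin-like growth factors bind receptor tyrosine kinases, which phosphorylate adaptor proteins that recruit phosphoinositide 3-kinase (PI3K). The lipid made by PI3K activates the kinase AKT, and AKT2 phosphorylates TBC1D4 so that vesicles carrying GLUT4, the transporter encoded by SLC2A4, reach the cell surface. Skeletal muscle is the main site of insulin-stimulated glucose uptake in the body, and fat cells use the same route.

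Several of these genes make different proteins through the choice of an exon or of a start, and the sequences below are the ones that tell those forms apart. They were read from the RefSeq assembly of Sscrofa11.1, 5′ to 3′ on the strand of the gene, with the bases named in capitals. INSR exon 11 (36 coding bases in capitals, chr2:71904810-71904865, plus strand) distinguishes the B form of the insulin receptor, which holds it, from the A form, which skips it. In IGF1, an exon of 52 coding bases (capitals, chr5:81832639-81832710, plus strand) alters the carboxy-terminal E peptide of the precursor. TBC1D4 has an annotated exon of 24 coding bases (capitals, chr11:47587233-47587276, minus strand). Another TBC1D4 exon has a pair of acceptor sites 3 bases apart, and the capitals mark the bases that the upstream site adds (chr11:47592399-47592439, minus strand). In PIK3R1, 2 inner first exons each hold their own start codon and give short forms of the regulatory subunit. These are known as p50 (16 coding bases in capitals, chr16:46511557-46511582, plus strand) and p55 (106 coding bases in capitals, chr16:46513431-46513546, plus strand). Each printed stretch begins at the start codon, not at the start of the exon.
INSR exon 11: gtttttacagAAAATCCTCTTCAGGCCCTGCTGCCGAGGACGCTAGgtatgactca
IGF1 52-base exon: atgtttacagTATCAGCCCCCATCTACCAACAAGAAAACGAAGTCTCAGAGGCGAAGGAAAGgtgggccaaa
TBC1D4 24-base exon: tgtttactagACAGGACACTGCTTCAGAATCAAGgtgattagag
TBC1D4 acceptor pair: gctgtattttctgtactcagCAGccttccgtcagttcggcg
PIK3R1 p50 start: ATGCATAACCTGCAAAgtaagttgcc
PIK3R1 p55 start: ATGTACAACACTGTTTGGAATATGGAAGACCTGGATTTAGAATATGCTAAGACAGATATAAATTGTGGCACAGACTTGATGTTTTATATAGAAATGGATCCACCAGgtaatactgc

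The libraries held 30535 to 44609 assembled transcripts, more in H than in L (35094 to 44609 against 30535 to 36061, exact permutation test, two-sided, p = 0.00866), and 9.88 to 17.6 gigabases of coverage, which overlapped between the groups. L3 and H4 were the least like the other libraries, with a median Pearson's r of 0.872 and 0.880 over 12403 genes, against 0.888 to 0.903 in the other 10. Markers of muscle fibres were abundant in all pigs, with a summed level of 26967 to 42141 FPKM in H and 28768 to 39259 FPKM in L. CKM, the muscle creatine kinase, and MYH7, the slow myosin heavy chain, are listed at 0 in at least 1 library of each group, so a gene listed at 0 is not taken as silent.

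Levels are given as FPKM, a fragment count divided by transcript length and by the mapped fragments of the library, summed over the transcripts of a gene and scaled between libraries by median ratios. Where an assembly breaks a gene into pieces that share no base, each piece adds its own FPKM, and the sum exceeds the level of the gene. This occurred in 8 libraries for INSR, 6 for IGF1, 4 for TRARG1, 3 for AKT2, 2 for PIK3R1 and 0 for the other 5 genes. For that reason the read coverage over the coding exons, brought to the scale of FPKM, is given beside each sum. This second measure was chosen after the data were seen.

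Of the 10 genes, 0 passed an adjusted p of 0.1 in H against L (limma, Benjamini-Hochberg over 12403 genes), while 0.00806% of all genes tested did. At an unadjusted p under 0.05 the summed FPKM of 2 of the 10 differed, AKT2 being higher and IRS2 lower in H, beside 7.3% of all genes tested. By coverage over coding exons the 10 genes again gave 0 calls, beside 0% of 10711 genes, and 2 genes had an unadjusted p under 0.05, beside 8.7% of all. These were INSR and IRS2, both lower in H. The median log2 fold change of the 10 was 0.15 by summed FPKM and 0.10 by coding coverage, with medians over all genes tested of 0.00 and -0.01.

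**Figure D1:**
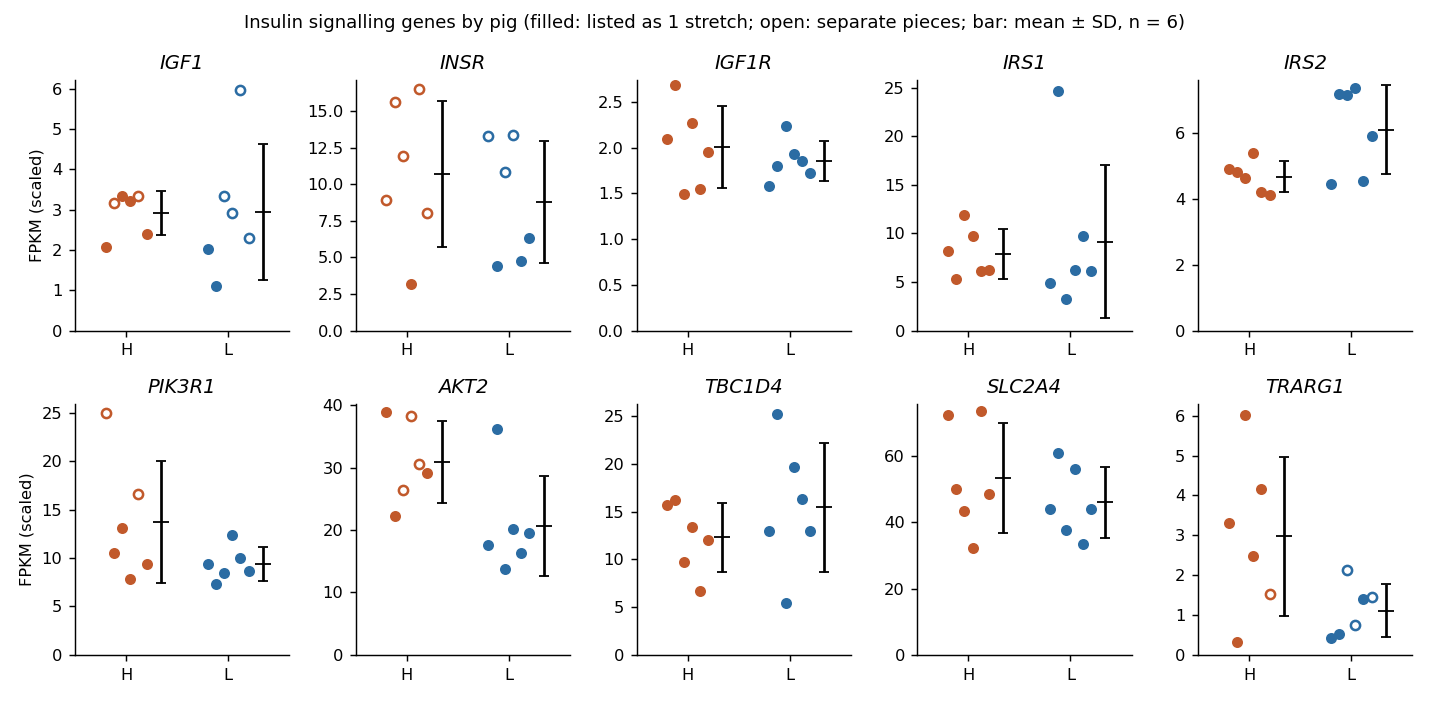
Scaled FPKM of the 10 genes in each pig (y axis, from 0; x axis, H in orange and L in blue, 6 pigs each), with filled points where a library lists the gene as 1 stretch, open points where it lists separate pieces, and bars for mean ± SD. The groups overlapped in all 10 genes. In AKT2 the 6 H pigs lay above 5 of the 6 L pigs.

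IGF1 (chr5:81762027-81909253, plus strand) encodes the insulin-like growth factor that muscle makes for itself. Its level was lowest at 2.07, median 3.18 and highest at 3.35 FPKM in H, and lowest at 1.10, median 2.61 and highest at 5.98 FPKM in L. The H pigs lay inside the range of the L pigs, and the highest value, in L5, was the sum of 3 separate pieces. In H minus L the log2 fold change was 0.11 (SE 0.27, limma, adjusted p = 0.944). By coding coverage it was 0.34 (SE 0.19, limma, adjusted p = 0.632), with 5 of 6 H pigs above the median of the L pigs. Over all annotated exons the 6 H pigs all lay above that median, with a log2 fold change of 0.42 (SE 0.19, limma, adjusted p = 0.518; p = 0.0649 in an exact permutation test).

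Of the annotated first introns of IGF1, chr5:81762213-81781262 and chr5:81778548-81781262 were listed in 0 libraries. Intron chr5:81776727-81781262 and, downstream of it, chr5:81781420-81830774 were each listed in 12 of 12 libraries. In L5 an unannotated transcript of 6 exons and 0.51 FPKM began upstream of the other listed transcripts, at base 81776149. The 52-base exon was present in 8 libraries, 4 of each group. Its share of the FPKM of the transcripts that hold or skip it ran from 0% to 35.5%, with a mean of 15.2% ± 13.9 (SD, n = 6) in H and 17.8% ± 15.0 (SD, n = 6) in L. The groups did not differ beyond that spread (p = 0.745 in an exact permutation test and 1 after adjustment over 12 choices).

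INSR (chr2:71797209-71939923, plus strand) encodes the insulin receptor. Its summed level was lowest at 3.20, median 10.4 and highest at 16.5 FPKM in H, and lowest at 4.399, median 8.58 and highest at 13.3 FPKM in L. These sums followed the state of the assembly. The 4 libraries that list INSR as 1 stretch, H4, L2, L5 and L6, gave 3.20 to 6.33 FPKM. The 8 libraries that list it in pieces, 5 of H and 3 of L, gave 8.04 to 16.5 FPKM, with no overlap between the libraries of 1 stretch and those in pieces.

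The piece that holds the coding sequence ended between bases 4931 and 5748 of the spliced transcript in all 8 of those libraries. Separate stretches downstream of it covered most of the rest of the annotated 3′ untranslated region. In H2, for example, the pieces of this region carried 5.10 and 5.89 FPKM as deposited, against 2.34 and 0.58 FPKM for the 2 transcripts that hold the coding sequence. In L4 the downstream piece carried 7.47 and the coding piece 5.88 FPKM.

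**Figure D2:**
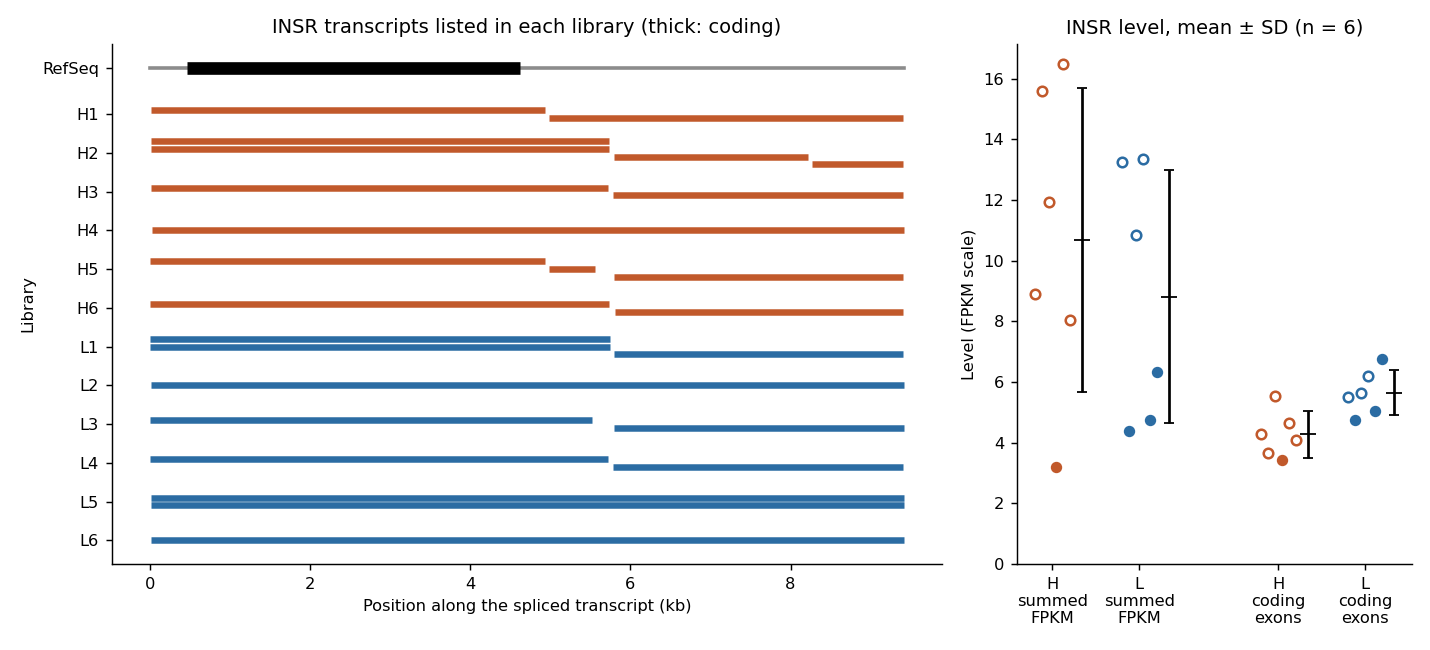
Left, the stretch of the annotated spliced INSR transcript (x axis, kb from its start) that each listed transcript covers in each library (y axis; H orange, L blue; black, the coding part in RefSeq). Right, the INSR level on the FPKM scale (y axis) as summed FPKM and as coverage over coding exons, with filled points for libraries with 1 stretch, open points for separate pieces and bars for mean ± SD (n = 6). Means are 10.7 and 8.82 FPKM in H and L by sum and 4.27 and 5.65 by coding coverage.

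The direction of INSR depended on the measure. Summed FPKM gave a log2 fold change of 0.24 (SE 0.40, limma, adjusted p = 0.909). Over the coding exons, where the read depth was 23.9 to 72.3, INSR was lowest at 3.43, median 4.18 and highest at 5.54 in H, and lowest at 4.75, median 5.57 and highest at 6.75 in L. Only H3, at 5.54, lay inside the range of the L pigs, and the other 5 H pigs lay below every L pig. That log2 fold change was -0.37 (SE 0.12, limma, adjusted p = 0.441; p = 0.0108 in an exact permutation test). With each pig left out in turn it ran from -0.44 to -0.32. Coverage over all annotated exons, also gave a negative value, -0.32 (SE 0.14, limma, adjusted p = 0.516; p = 0.0498 in an exact permutation test).

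INSR exon 11 was included in the main form in all 12 libraries. The form that skips it was listed in H2, L1 and L5 alone, where the share of exon 11 was 80.1%, 80.1% and 85.9%. The mean share was 96.7% ± 8.12 (SD, n = 6) in H and 94.3% ± 8.98 (SD, n = 6) in L (p = 0.727 in an exact permutation test and 1 after adjustment). A form not listed can still be present below what the assembler reports.

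IGF1R (chr1:137383623-137691038, minus strand), the receptor for insulin-like growth factors, was listed as 1 stretch in every library. Its level was lowest at 1.49, median 2.03 and highest at 2.68 FPKM in H, and lowest at 1.58, median 1.83 and highest at 2.23 FPKM in L. The L pigs lay inside the range of the H pigs. On the log2 scale the difference was 0.08 (SE 0.14, limma, adjusted p = 0.913), and 0.02 (SE 0.11) by coding coverage. Of its annotated first introns, the same one was listed in all 12 libraries.

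IRS1 (chr15:128245846-128307321, minus strand) encodes the adaptor that links the insulin receptor to PI3K in muscle. It was lowest at 5.26, median 7.21 and highest at 11.9 FPKM in H, and lowest at 3.23, median 6.22 and highest at 24.6 FPKM in L. L2 stood apart, since the other 5 L pigs lay between 3.23 and 9.75 FPKM. L2 listed IRS1 as 5 overlapping transcripts, and its coding coverage was equally apart, 25.99 against at most 10.1 in the other L pigs. The log2 fold change was 0.04 (SE 0.39, limma, adjusted p = 0.989), and 0.38 without L2.

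IRS2 (chr11:76626158-76654639, minus strand) encodes the second adaptor, best known from liver and pancreatic beta cells. It was lowest at 4.11, median 4.72 and highest at 5.39 FPKM in H, and lowest at 4.46, median 6.54 and highest at 7.38 FPKM in L. All 6 H pigs lay below the median of the L pigs, and 4 of the 6 L pigs lay above every H pig. In H minus L the log2 fold change was -0.33 (SE 0.14, limma, adjusted p = 0.679; p = 0.0455 in an exact permutation test). By coding coverage it was -0.45 (SE 0.16, limma, adjusted p = 0.484; p = 0.0281 in an exact permutation test). IRS2 was listed as 1 stretch in all libraries, and the difference was negative in every alternative that gave a value, from -0.45 to -0.27. In H4 that stretch held 2 overlapping transcripts, and H4 was the highest H pig by sum, 5.39, and the lowest by coding coverage, 3.23.

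PIK3R1 (chr16:46434757-46523626, plus strand) encodes the regulatory subunit that holds PI3K to the adaptors. Its summed level was lowest at 7.79, median 11.8 and highest at 25.0 FPKM in H, and lowest at 7.35, median 9.04 and highest at 12.4 FPKM in L. The 2 highest pigs, H1 and H5, were those in which the gene was listed in 2 separate pieces. On the log2 scale the difference was 0.44 (SE 0.25, limma, adjusted p = 0.729; p = 0.126 in an exact permutation test), and 0.25 without H1. By coding coverage it was 0.26 (SE 0.16, limma, adjusted p = 0.645), and H1 remained the highest pig at 14.1, while H5 at 9.71 lay inside the range of the L pigs.

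A first intron of the long form of PIK3R1, known as p85, was listed in all 12 libraries, with a median share of 67.9% of the FPKM of transcripts that hold an annotated first intron. In H1 and H5 that intron lies on a 5′ piece of 4 and 2 exons, and neither library lists a whole long form, so their long shares of 36.7% and 100% are those of fragments. The p50 form was listed in 7 libraries, where H1 had the highest share at 37.4%. The p55 form was listed in 6 libraries, with its highest share, 34.7%, in H4. At least 1 short form was thus listed in 8 libraries, 3 of H and 5 of L, and the p50 share averaged 10.8% ± 17.1 (SD, n = 6) in H and 23.4% ± 11.6 (SD, n = 6) in L. The groups overlapped (p = 0.21 in an exact permutation test and 1 after adjustment), and this was the smallest p of the 12 choices tested among the 10 genes.

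**Figure D3:**
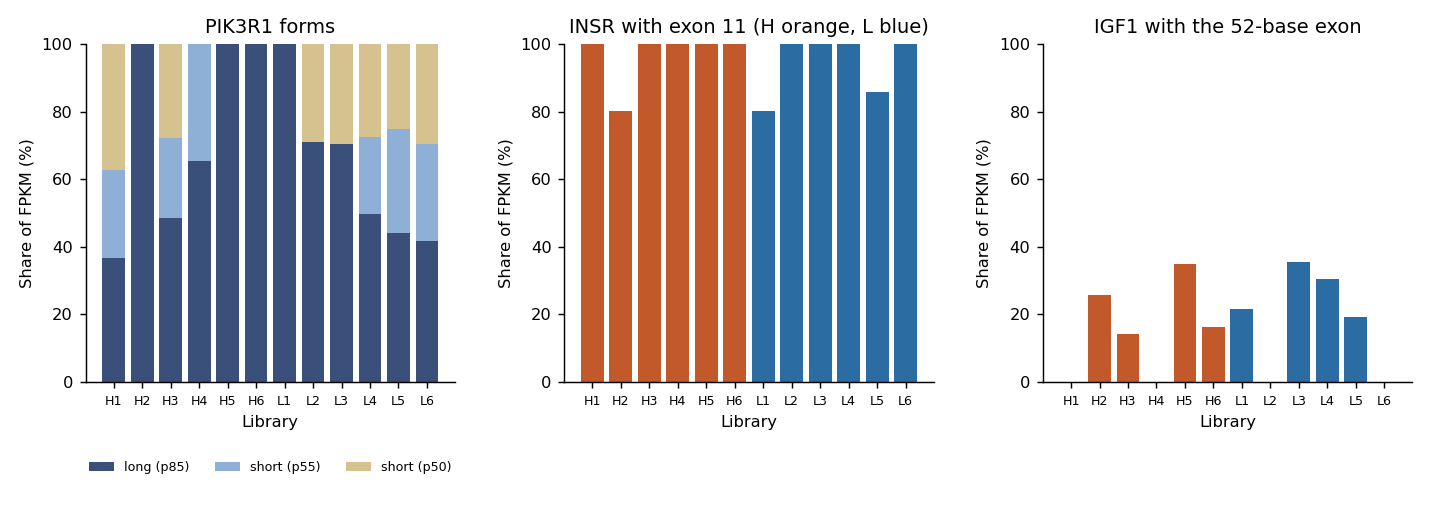
Share of FPKM (y axis, %) by library (x axis) of the 3 PIK3R1 forms among transcripts with a first intron, of INSR transcripts with exon 11 and of IGF1 transcripts with the 52-base exon; H bars are orange and L bars blue in the last 2 panels. H2, H5, H6 and L1 list the first intron of the long PIK3R1 form alone, in H5 on a 5′ fragment, and H2, L1 and L5 fall below 100% for INSR exon 11.

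AKT2 (chr6:48555785-48620472, minus strand) encodes the AKT kinase that insulin uses for glucose uptake in muscle and fat. It was lowest at 22.2, median 29.9 and highest at 38.9 FPKM in H, and lowest at 13.8, median 18.6 and highest at 36.2 FPKM in L. Of the L pigs 5 lay between 13.8 and 20.2 FPKM, below every H pig, and L2 lay above 4 of the 6 H pigs. The log2 fold change was 0.62 (SE 0.22, limma, adjusted p = 0.612; p = 0.0281 in an exact permutation test). Without L2 it was 0.79 (limma, adjusted p = 0.367).

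The size of the AKT2 difference also moved with the measure. H3, H4 and H5, and 0 of the L pigs, list AKT2 in separate pieces, and in H3 a piece of 199 bases carries 10.02 FPKM as deposited. Coding coverage was lowest at 17.2, median 29.6 and highest at 39.9 in H, and lowest at 15.2, median 19.95 and highest at 38.2 in L, so that H3 now lay among the L pigs. In H minus L the log2 fold change was 0.41 (SE 0.23, limma, adjusted p = 0.627; p = 0.13 in an exact permutation test). Over all annotated exons it was -0.02 (SE 0.15, limma, adjusted p = 0.984), and without H4 and L3 the summed FPKM gave 0.45 (limma, adjusted p = 0.807).

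TBC1D4 (chr11:47543808-47760928, minus strand), the AKT substrate that restrains GLUT4 vesicles until insulin acts, was listed as 1 stretch in every library. It was lowest at 6.74, median 12.7 and highest at 16.3 FPKM in H, and lowest at 5.39, median 14.7 and highest at 25.3 FPKM in L. The H pigs lay inside the range of the L pigs, whose highest value was again in L2. On the log2 scale the difference was -0.24 (SE 0.32, limma, adjusted p = 0.885), and -0.30 (SE 0.33) by coding coverage. The 24-base exon printed above was listed in 0 of 12 libraries. The upstream acceptor of the pair was listed in 4 libraries, H3, L1, L2 and L5, with 12.9 to 34.8% of the FPKM of the transcripts that use either site.

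SLC2A4 (chr12:52628746-52634965, plus strand), which encodes GLUT4, had the highest level of the 10 genes. It was lowest at 32.1, median 49.3 and highest at 73.6 FPKM in H, and lowest at 33.4, median 44.0 and highest at 61.0 FPKM in L. H1 and H5, at 72.4 and 73.6 FPKM, lay above every L pig, and H4 lay below every L pig. The log2 fold change was 0.19 (SE 0.22, limma, adjusted p = 0.865), and 0.14 (SE 0.20) by coding coverage, where the read depth was 262 to 608.

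TRARG1 (chr12:46623712-46634115, minus strand; listed in RefSeq under its older symbol TUSC5) encodes a membrane protein of GLUT4 vesicles that is best known from fat cells. It was lowest at 0.331, median 2.90 and highest at 6.01 FPKM in H, and lowest at 0.428, median 1.07 and highest at 2.13 FPKM in L. Of the H pigs 4 lay above every L pig, while H2 lay below all of them. H2 lists only a single exon, bases 46621117 to 46624180, most of which lies past the annotated 3′ end of the gene at base 46623712. The coverage of that exon was 2.52, while the read depth in H2 was 0.139 over the annotated exons and 0.0661 over the coding exons. In H minus L the log2 fold change was 0.95 (SE 0.45, limma, adjusted p = 0.684; p = 0.0844 in an exact permutation test), on a scale of log2(FPKM + 0.5) that understates the change of a gene with so low a level. By coding coverage it was 1.03 (SE 0.53, limma, adjusted p = 0.605), and without H2 the summed FPKM gave 1.31 (limma, adjusted p = 0.548). H6, L3, L4 and L6 list the gene in separate pieces.

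Fat cell markers moved with the same groups. The 12 adipocyte markers summed to 107 to 220 FPKM in H (median 140) and 78.6 to 131 FPKM in L (median 115), a difference of 0.47 on the log2 scale (p = 0.0455 in an exact two-sided permutation test, 0.152 when adjusted over 10 lists). All 10 of the markers tested were higher in H, and the median of their log2 fold changes was 0.76, with 0 called, while ADRB3 is listed at 0 in all libraries. Among them ADIPOQ, the adipokine adiponectin, averaged 12.2 FPKM in H and 5.06 in L, PLIN1, the coat protein of fat droplets, 5.67 and 2.02 and FABP4, a fatty acid carrier, 51.4 and 33.3. LEP, which encodes leptin, is listed at 0 in 5 libraries.

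Their part in the TRARG1 difference was not tested, and in whole muscle a change in the number of cells of a type and a change of RNA per cell cannot be told apart. Over the 12 libraries the 3 genes most like TRARG1 of 10464 genes were PLIN1, ADIPOQ and ALDOC, an aldolase of glycolysis, with a Pearson's r on the log2 scale of 0.92, 0.90 and 0.88. The r of TRARG1 with the summed adipocyte markers was 0.67, the highest of the 10 genes, and that of IRS2, -0.63, was the lowest. These points share depth and assembly, and the values are descriptions.

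**Figure D4:**
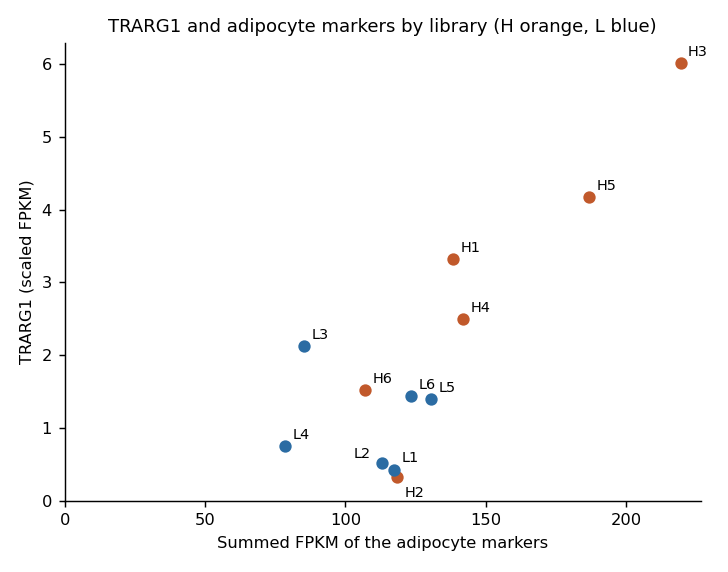
TRARG1 (y axis, scaled FPKM) against the summed FPKM of the adipocyte markers (x axis) in each library, H in orange and L in blue. H3 and H5 are highest on both axes, and H2 has 118.6 FPKM of markers with 0.331 FPKM of TRARG1.

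Other cell types were checked in the same way. Endothelial markers summed to 52.9 to 121 FPKM in H and 36.4 to 97.7 FPKM in L (exact permutation test, p = 0.277), with PECAM1, a junction protein of vessel walls, at 24.3 and 17.9 FPKM on average. Erythroid markers were higher in H (85.7 to 301 against 73.9 to 163 FPKM, exact permutation test, p = 0.0238, adjusted p = 0.119), with HBB, a chain of haemoglobin, at 214 and 108 FPKM. Immediate early genes, which respond within minutes to stress and handling, were lower in H (59.1 to 273 against 164.7 to 631 FPKM, exact permutation test, p = 0.0195, adjusted p = 0.119), with FOS at 13.8 and 52.4 FPKM and EGR1 at 8.55 and 20.2 FPKM. The fibre, slow fibre, matrix, macrophage, Schwann cell and satellite cell lists had p-values from 0.238 to 0.853 in exact permutation tests. Of the matrix markers 6 of 7 had a positive log2 fold change, with a median of 0.21 and 0 called. COL1A1, a collagen chain of the matrix, averaged 49.6 FPKM in H and 64.5 in L, with a log2 fold change of 0.0053, and its L mean holds 1 pig at 255 FPKM. Of the fibre markers 6 of 11 were higher in H and 0 were called, the fibre proteins MYLPF and TNNC2 averaging 9643 and 6749 FPKM in H and 9113 and 5904 in L. The macrophage gene CD68 is listed at 0 in all libraries. The part of these lists in the differences of the 10 genes was not tested.

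**Figure D5:**
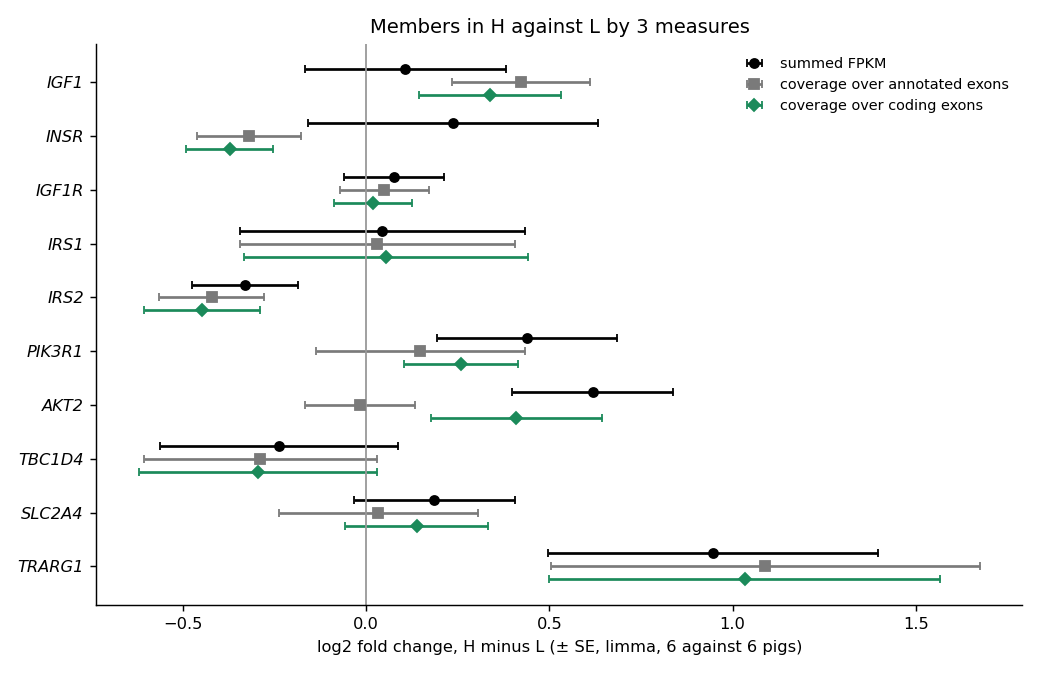
Log2 fold change of each gene in H minus L (x axis, ± SE, limma, 6 against 6 pigs) by summed FPKM (black), coverage over annotated exons (grey) and coverage over coding exons (green). INSR changes side of 0 between summed FPKM (0.24) and coding coverage (-0.37), AKT2 shrinks from 0.62 to -0.02 over annotated exons, and IRS2 stays below 0 in all 3.

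By median over the 12 pigs the order of summed FPKM, which is per length, was SLC2A4 (46.3), AKT2 (24.3), TBC1D4 (13.2), INSR (9.87), PIK3R1 (9.72), IRS1 (6.25), IRS2 (4.87), IGF1 (3.04), IGF1R (1.89) and TRARG1 (1.48). SLC2A4 exceeded AKT2 in 11 of 12 pigs, and AKT2 exceeded TBC1D4 in 11 of 12 (exact sign-flip permutation tests, p = 0.000977 each, adjusted p = 0.0044 over 9 neighbours). IRS2 over IGF1 and IGF1 over IGF1R also passed 0.05 (adjusted p = 0.0044 and 0.0275, exact sign-flip permutation tests). The other 5 neighbours did not differ beyond their spread, with adjusted p from 0.0923 to 0.496 in the same exact tests.

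By coding coverage the place of INSR fell. Its median was 4.89, next to IRS2 at 5.09, and INSR exceeded IGF1R in 12 of 12 pigs by a mean of 1.14 on the log2 scale (exact sign-flip permutation test, adjusted p = 0.00146). IGF1R, at 1.96, then lay above IGF1, at 1.53, in 9 of 12 pigs (exact sign-flip permutation test, adjusted p = 0.0934), the reverse of the order by summed FPKM. By coverage over annotated exons IGF1R, at 2.47, lay above IGF1, at 1.34, in 11 of 12 pigs (exact sign-flip permutation test, adjusted p = 0.0044). Both coverage measures divide by every annotated base of a gene, listed or not. In H1 the only IGF1 transcript held 7342 bases, of 11969 annotated. Its coverage was 19.8, and that of the only IGF1R transcript was 19.7. Over the annotated exons the read depth in H1 was 9.56 for IGF1 and 18.0 for IGF1R. The order of IGF1 and IGF1R thus depended on the measure, and by coverage also on annotated bases that were not listed.

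Within a group, the relation of each gene to the labelled IMF was examined over 6 pigs, in 20 relations. AKT2 had a Pearson's r of 0.89 in H (exact permutation test, p = 0.0222, adjusted p = 0.222) and a Spearman's rho of 0.89 (exact permutation test, p = 0.0333, adjusted p = 0.544), and r was 0.81 without the 2 pigs farthest from the median IMF. In L its r was -0.59 (exact permutation test, p = 0.199). INSR had an r of -0.91 in H by summed FPKM (exact permutation test, p = 0.0125, adjusted p = 0.222; rho -0.77, p = 0.103), and -0.76 without the same 2 pigs. H4, with the highest IMF, is also the H library that lists INSR as 1 stretch, and by coding coverage the r of INSR in H was -0.51 (exact permutation test, p = 0.312, adjusted p = 0.731). By the same measure that of AKT2 in H was 0.72 (exact permutation test, p = 0.0944, adjusted p = 0.73). None of the 20 passed adjustment, and coverage over annotated exons gave a smallest adjusted p of 0.861. Coding coverage gave a smallest adjusted p of 0.73 for Pearson's r and 0.667 for Spearman's rho (exact permutation tests). The labelled IMF of the L pigs lies below the group mean that the study's methods state, so the relations within L rest on the labels.

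The wider pathway was described with a list of 100 genes, the 10 included, of which 98 were matched on chromosomes and 93 passed the filter. AKT1 and PIK3R3 were not matched. Of the 93, 0 passed the adjusted p of 0.1 (limma), 40 were higher and 53 lower in H, and the median log2 fold change was -0.05. At an unadjusted p under 0.05 there were 7, 3 higher and 4 lower, beside 7.3% of all genes tested. Coding coverage gave 11 of 90, 4 higher and 7 lower, beside 8.7%.

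Ligands and binding proteins were mostly higher in H, 8 of 9 tested, with a median log2 fold change of 0.30. IGFBP7, a secreted protein of the binding protein family that vessels express, averaged 36.2 ± 13.3 FPKM in H and 20.3 ± 3.63 FPKM in L (SD, n = 6 each), and only the range of 24.7 to 26.2 FPKM was shared between the groups. Its log2 fold change was 0.77 (SE 0.21, limma, adjusted p = 0.563), and 0.69 by coding coverage. IGFBP3, the main carrier of insulin-like growth factors in blood, averaged 2.12 and 1.52 FPKM. Its log2 fold change was 0.37 (limma, adjusted p = 0.680), and 0.38 by coding coverage.

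Among PI3K and AKT genes 5 of 12 were higher in H, with a median of -0.10. RAC1, a small GTPase that links insulin to GLUT4 traffic, averaged 75.5 in H and 88.2 FPKM in L. Its log2 fold change was -0.22 (limma, adjusted p = 0.693), and -0.20 by coding coverage. The GLUT4 traffic list had 7 of 22 genes higher in H and a median of -0.07.

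Receptor adaptors had 5 of 11 genes higher in H and a median of -0.13, and the inhibitors of the pathway 7 of 17 and -0.09. By coding coverage 2 of 11 adaptors and 7 of 16 inhibitors were higher in H. ENPP1, an ectoenzyme that can inhibit the insulin receptor, averaged 2.29 ± 0.580 FPKM in H and 3.43 ± 1.10 FPKM in L (SD, n = 6 each). Its log2 fold change was -0.48 (SE 0.20, limma, adjusted p = 0.655), but -0.25 (SE 0.13) by coding coverage. SOCS2, an inhibitor of cytokine and growth hormone signals, averaged 1.09 and 0.757 FPKM. Its log2 fold change was 0.32 (limma, adjusted p = 0.690), and 0.34 by coding coverage.

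Of the AKT targets 2 of 14 were higher in H, with a median of -0.13, and 4 of 14 by coding coverage, with a median of -0.08. FOXO3, a transcription factor that AKT keeps out of the nucleus, averaged 12.6 ± 2.18 FPKM in H and 16.2 ± 2.91 FPKM in L (SD, n = 6 each). Its log2 fold change was -0.35 (SE 0.15, limma, adjusted p = 0.679), and -0.33 by coding coverage. Among glucose transporters, 4 of 6 were higher in H, and 2 of 5 by coding coverage. SLC2A3, which encodes GLUT3, was 1.501 to 4.69 FPKM in H and 2.36 to 10.4 FPKM in L, a log2 fold change of -0.93 (SE 0.34, limma, adjusted p = 0.631), and -0.95 by coding coverage. The receptors tested, 3 of 3, were higher by summed FPKM and 1 of 3 by coding coverage.

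By coding coverage 3 further genes, named after their values were seen, had an unadjusted p under 0.05. MTOR, the kinase of growth signalling, had a log2 fold change of -0.41 (SE 0.10, limma, adjusted p = 0.435) against 0.13 by summed FPKM. GRB10, an adaptor that inhibits the insulin receptor, had -0.48 against -0.56 by summed FPKM, and TRIB1, a pseudokinase, -0.59 against -0.29 (limma, adjusted p = 0.499 and 0.484 by coding coverage).

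The genes most like the other members over the 12 libraries had a Pearson's r between 0.80 and 0.93 on the log2 scale of summed FPKM. For IRS1 they were TBC1D9B, TBC1D24 and SCAPER (r from 0.92 to 0.93), and for TBC1D4 ASB12, KLHL33 and ANKRD28 (r from 0.91 to 0.92). For AKT2 they were SH3GLB2, LOC102158443 and ARHGAP19, and for IRS2 PAPD5, BUD13 and TCF25. IP6K3, RPAIN and ACO1 were nearest to INSR, MSN, SAP130 and APP to IGF1, ZNF74, LOC102164814 and EPB41L1 to IGF1R, KIAA0319L, KIAA0907 and SEC23IP to PIK3R1, and MFSD9, FAAH and DNAL4 to SLC2A4. All 12 libraries share the assembly step, and no test was made of these values.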

How the data were processed

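The deposited files list, for each LD library, the transcripts that the authors assembled, with exons, FPKM, its confidence bounds and the read coverage. Per the labels, paired-end libraries were sequenced, and the submitters' processing notes name FastQC, Trim Galore, TopHat2 2.1.0, Cufflinks 2.2.1 and Sscrofa11.1. Beyond the division by mapped fragments that is part of FPKM, the values carry no scaling between libraries. Here each transcript was assigned to the RefSeq gene on its strand with most shared exonic bases (Python 3.11.15), FPKM was summed per gene and scaled by median ratios, and the filter kept genes whose H or L mean reached 0.5 FPKM. A transcript listed without a strand was compared with genes on both strands, and was assigned where the gene's exons covered at least 0.5 of its bases. Values were fitted as log2(FPKM + 0.5) by limma (version 3.58.1, R version 4.3.3), two-sided, with a variance trend, Benjamini-Hochberg adjustment and a threshold of 0.1. Coverage over exons is the sum of transcript coverage times shared bases over the annotated or coding length. That length counts every annotated base of the gene, listed or not. Exact permutation tests used all 924 arrangements of 6 against 6 pigs, with 0.00216 as their smallest possible p. Order tests used 4096 sign changes and IMF relations 720 arrangements. Isoform shares were tested where at least 5 libraries of each group gave a share and the share was not the same in all, 12 of 35 choices.

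The members and gene lists were chosen with earlier results of these data known. All 10 members are named. Of the other pathway genes those that pass, and the 4 with the smallest p in each direction, are named, as are the 3 genes most like each member and fixed markers. A gene named by this rule is not reported here. Pigs were mapped to groups by the labels, and each is a separate animal. Alternatives were other pseudocounts, filters and scalings, coverage, annotated intron chains, limma settings, depth, a block for the individual number, and pigs left out. Coding coverage and the fit with no transcripts under 200 bases were added after the data were seen. The fit was tested on simulated data. No columns were left out.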

Additional observations from a re-analysis of the deposited data

Results flagged for a closer look

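Of 40 sets of 6 values, the 10 genes in each group by each of summed FPKM and coding coverage, 4 held a pig whose gap to the nearest other pig of its group exceeded the 95% critical share of the range in Dixon's test. The chance rate of 1 in 20 holds for independent sets of normally distributed values. These values were not log-transformed, and each gene enters by both measures, so the count of 4 cannot be set against that rate. The 4 flags were those of IRS1 and AKT2, each by both measures. All 4 were L2. For IRS1, L2 had 24.6 FPKM against 9.75 in the next L pig, a gap of 0.695 of the range, and a coding coverage of 25.99 against 10.1. For AKT2, L2 had 36.2 FPKM against 20.2 in the next L pig, a gap of 0.716 of the range, and a coding coverage of 38.2 against 21.6. Coverage over all annotated exons was not among these sets. By that measure AKT2 in L2, at 24.9, lay below L4, at 25.6, while IRS1 in L2 stayed apart, at 24.2 against 10.4 in L5. L2 also had the highest TBC1D4 and SLC2A4 of the L group, 25.3 and 61.0 FPKM, and the lowest IGF1, 1.10 FPKM. The cause was not tested.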

How the results depend on the processing

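No member and no other pathway gene passed the adjusted p of 0.1 in any of the 27 alternatives to summed FPKM. The direction of IRS2, TBC1D4, SLC2A4, TRARG1 and IGF1R was the same in each alternative that gave a value, and IRS2 had none with annotated intron chains. INSR turned to -0.32 by coverage over annotated exons, -0.34 with annotated intron chains and -0.37 by coding coverage. AKT2 turned to -0.017 by annotated exons and -0.97 with annotated chains, PIK3R1 to -0.72 with annotated chains, and IRS1 to -0.24 without H4 and L3 (-0.22 by coding coverage). With each pig left out in turn, IGF1 ran from -0.089 to 0.32, its lowest without L2, IRS1 from -0.17 to 0.38 (-0.16 to 0.39 by coding coverage), and IGF1R by coding coverage from -0.033 to 0.073. The 2 members with an unadjusted p under 0.05 became 1 with quantile normalization, annotated chains or no transcripts under 200 bases, 0 without H4 and L3, and 1 to 3 with a pig left out, 1 of them without H1, H3, H5, H6, L2, L4 or L6. The 7 pathway genes became 12 by annotated exons, 2 with annotated chains and 11 by coding coverage, with 5 to 9 when a pig was left out. Over all genes tested, the 1 gene called became 0 to 3. The counts of isoform shares, of IMF relations and of marker lists past their thresholds were 0 throughout, and the 4 neighbours in the order were 3 to 6.

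The individual numbers run in the order of falling EBV within each group, and the labels name no pairs. Over all genes tested, the deviations of pigs with the same number correlated at -0.0746 to 0.0607. Such a correlation cannot show whether these pigs shared a batch. With the number as a block, 0 members were called, 3 had an unadjusted p under 0.05, and 0 of the 12403 genes passed.

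Depth limits TRARG1 most, and the p-values cover the spread between 6 pigs a group.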
